A study of Mus musculus with 6 samples.

Results

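The granins and the enzymes that cut and amidate peptide hormones were followed through the RNA of mouse astrocytes taken from brains with and without grafts of SCLC, small cell lung cancer, which is a carcinoma of neuroendocrine type. The 10 genes were chosen as a family of dense-core vesicle proteins, some of them also markers of neuroendocrine tumours: the granins Chga, Chgb, Scg2, Scg3 and Vgf, the convertase chaperone Scg5, and the processing enzymes Pcsk1, Pcsk2, Cpe and Pam. They are 10 of the 35127 genes over which reads were summed, and 7 of them were among the 14359 genes with enough reads to be tested; Chga, Pcsk1 and Pcsk2 were not. The 3 tumour libraries hold astrocytes isolated from SCLC allografts in the brain, and the 3 sham libraries hold astrocytes from brains given a sham injection. The labels state no strain, age, host, time after injection or method of purification, and not whether replicates come from separate animals. The p-values below therefore rest on the spread among libraries, which may be technical. An allograft and its host are of the same species, so reads of tumour cells and of astrocytes cannot be separated by species.

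Dense-core vesicles store peptides for release on demand. Granins are acidic proteins that help to build these vesicles and to sort cargo into them, and several are themselves cut into bioactive peptides. The prohormone convertases PC1 (Pcsk1) and PC2 (Pcsk2) cut precursors at paired basic residues, carboxypeptidase E (Cpe) trims the basic residues left behind, and peptidylglycine alpha-amidating monooxygenase (Pam) amidates the new end. Astrocytes are known to hold a regulated secretory pathway of their own, and carboxypeptidase E and secretogranin III have been described in them.

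The libraries had 22133723 to 25800897 estimated reads. Sham 3 stood apart from sham 1 and 2 in log2 CPM (reads scaled to a common library total) over all tested genes. Its root mean square difference was 0.802 from sham 1 and 0.795 from sham 2. This measure was 0.351 between sham 1 and 2 and 0.322 to 0.352 among the tumour libraries. Between tumour and sham libraries it was 0.734 to 0.749, less than between sham 3 and sham 1 or 2. Mitochondrial reads made up 4.2% in sham 3, near the 4.05% to 4.23% of the tumour libraries and below the 6.66% and 6.2% of sham 1 and 2. Several of the 10 genes were among those in which sham 3 departed most, so the CPM or reads of each of the 10 are given by library. For most genes of the related lists only means with SD or log2 fold changes are given.

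Levels per length (TPM, which divides reads by transcript length, summed per gene) spanned the whole range from abundant to undetected. Cpe stood far above the rest in all 6 libraries, with 1850 ± 38.4 TPM (SD, n = 3) in the tumour and 1426 ± 60.4 in the sham libraries, and it ranked 55th to 90th among all genes in each library. Cpe alone made up 78.1% to 83.2% of the summed TPM of the 10 genes. In the tumour libraries the order continued with Scg3 (154.5 ± 1.4 TPM), Pam (145 ± 4.11), Vgf (87.9 ± 1.73) and Scg5 (73 ± 1), and the range of each stayed clear of its neighbour's. In the sham libraries Scg3 (65.9 to 196 TPM), Pam (78.7 to 134) and Scg5 (43.7 to 108) overlapped, and Vgf (10.8 to 32.8) lay below all of them. Vgf and Scg5 thus stood in opposite order in the 2 groups. Scg2 was at 0.244 to 1.63 TPM and Chgb at 0.193 to 0.358 TPM over the 6 libraries.

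**Figure D1:**
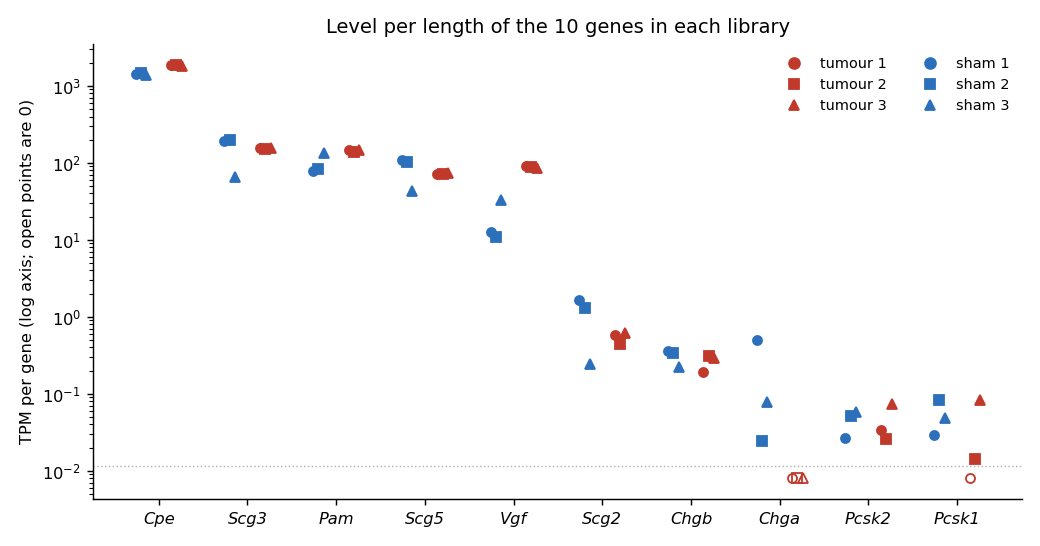
Level per length (TPM, log axis) of the 10 genes in each library, sham in blue and tumour in red, with libraries 1, 2 and 3 as circle, square and triangle; open points at the bottom are values of 0. Cpe lies above the rest in every library, Vgf is the only one of the 5 abundant genes whose tumour points lie far above all sham points, and Chga, Pcsk1 and Pcsk2 are near 0.

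Of the 7 tested genes, edgeR called 1 higher and 0 lower in tumour than in sham (quasi-likelihood test, p-values adjusted over all tested genes after Benjamini and Hochberg, threshold 0.05). Over all tested genes 10.5% were called higher and 10.4% lower, so 1 call among 7 is near that background. In 3 of the 7 (Vgf, Pam and Cpe) every tumour value lay above every sham value, and in 0 below; over all tested genes these shares were 22.2% and 21.9%. The 7 genes had a median log2 fold change of -0.03, and all tested genes one of -0.02. In bulk RNA, fewer cells of a type and less RNA per cell cannot be told apart.

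Among the granins, Vgf rose. Vgf encodes a neurotrophin-inducible granin whose peptides act on neurons and on energy balance, and lies on chromosome 5 from 137026392 to 137033351 in mm10. Its level was 205, 204 and 203 CPM in tumour libraries 1 to 3, and 24.1, 24.2 and 80.1 CPM in sham libraries 1 to 3. The tumour libraries were nearly equal and all above the sham libraries, of which sham 3 lay between sham 1 and 2 and the tumour level. The log2 fold change was 2.25 (SE 0.49, edgeR adjusted p = 0.0226), a 4.77-fold rise; the tumour mean was 8.45 times that of sham 1 and 2 and 2.55 times sham 3. Most Vgf reads, 89.8% to 98.6% in each library, were assigned to 1 coding transcript, Vgf-201. The call was lost whenever a library other than sham 3 was left out (edgeR adjusted p = 0.0838, 0.0820 and 0.0821 without tumour 1, 2 and 3, and 0.0627 and 0.0642 without sham 1 and 2), and also without a filter on low counts (0.0565) and with near-coinciding libraries summed (0.999). The fold stayed above 1 in all 15 alternatives, with log2 fold changes of 1.96 to 3.08.

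Secretogranins II and III and the chaperone 7B2 shared a pattern in which sham 3 was lowest, sham 1 and 2 highest and the tumour libraries in between. Scg3 encodes secretogranin III, which tethers granin aggregates to the cholesterol-rich vesicle membrane; it lies on chromosome 9 from 75643189 to 75684056. Scg3 stood at 241, 243 and 241 CPM in the tumour libraries and at 316, 319 and 102 CPM in the sham libraries. Its groups overlapped, and the log2 fold change was -0.03 (SE 0.40, edgeR adjusted p = 0.972). Its sign is not settled, since it was positive in 5 of 15 alternatives.

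Scg5 encodes 7B2, the small protein that keeps PC2 inactive until it reaches the acidic vesicle, and lies on chromosome 2 from 113776362 to 113829121. Its values were 48, 48.5 and 49.6 CPM in the tumour libraries and 75.7, 69.8 and 28.1 CPM in the sham libraries. This gave a log2 fold change of -0.25 with an SE of 0.34 (adjusted p = 0.645, edgeR). Scg2, the precursor of secretoneurin, was far less abundant and rested on 9 to 67 reads a library. It had 0.994, 0.781 and 1.07 CPM in the tumour libraries and 2.95, 2.37 and 0.408 CPM in the sham libraries. The difference was -1.01 on the log2 scale (SE 0.65, adjusted p = 0.316, edgeR). For both genes the tumour values lay inside the range of the sham values.

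The classical neuroendocrine granins were near the limit of detection. Chga, the gene of chromogranin A and a standard marker of neuroendocrine tumours, had 0 reads in each of the 3 tumour libraries and 4, 1 and 3 reads in sham libraries 1 to 3. A count of 0 allows up to 3 reads, or 0.118 to 0.124 CPM in these libraries, counting error only, and the 4 reads of sham 1 were all assigned to a short transcript that retains an intron. With at most 4 reads in any library, no fold is given. Chgb, the gene of chromogranin B, had 12, 20 and 19 reads in the tumour and 22, 21 and 13 reads in the sham libraries. The groups overlapped, at a log2 fold change of -0.23 with an SE of 0.37 (adjusted p = 0.697, edgeR).

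**Figure D2:**
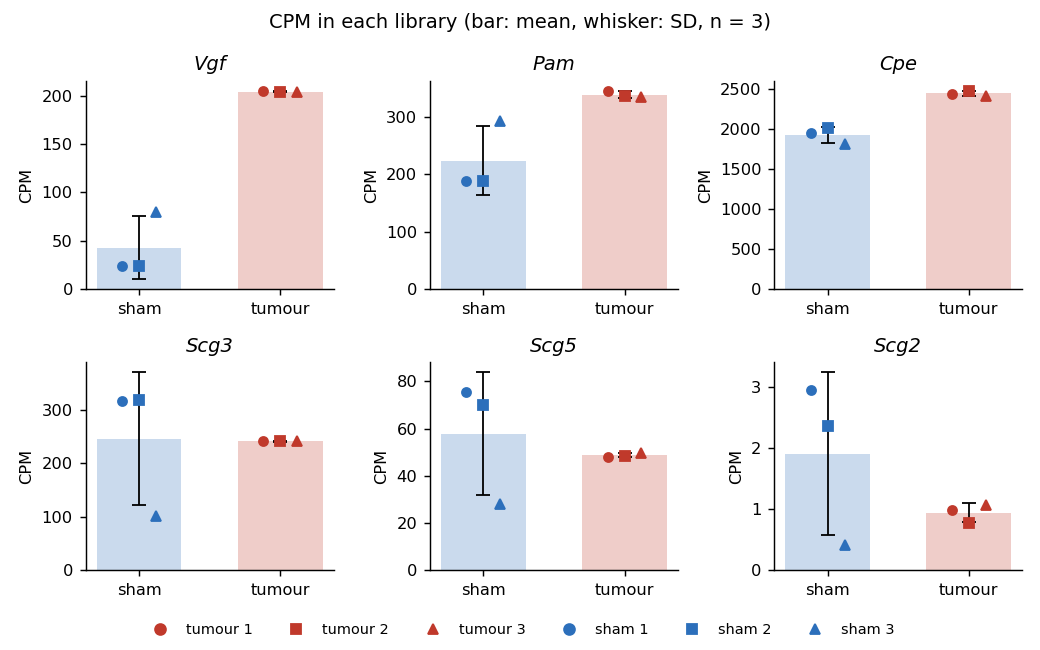
CPM of 6 of the 10 genes by group; each panel has its own axis from 0, points are libraries (circle, square and triangle for 1, 2 and 3), bars are means and whiskers SD (n = 3). The tumour points of Vgf, Pam and Cpe lie above all sham points, while for Scg3, Scg5 and Scg2 sham 1 and 2 lie above and sham 3 below the tumour points.

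Among the enzymes, the convertases of the regulated pathway were hardly present. Pcsk1 had 0, 1 and 6 reads in the tumour libraries and 2, 6 and 3 in the sham libraries, and Pcsk2 had 2, 2 and 6 reads and 2, 4 and 4 reads. Neither was tested, and at this depth no difference was detectable. Scg5 was thus measured at 28.1 to 75.7 CPM in the same libraries in which Pcsk2, whose product it escorts, had 2 to 6 reads.

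Cpe lies on chromosome 8 from 64592542 to 64693054. Carboxypeptidase E had 2439, 2472 and 2409 CPM in the tumour libraries and 1949, 2004 and 1810 CPM in the sham libraries. All tumour values lay above all sham values, by a small margin: the log2 fold change was 0.35 (SE 0.11), a 1.27-fold difference that did not pass the test (edgeR adjusted p = 0.0776). DESeq2 called it (adjusted p = 6.51e-05), as did limma-voom (adjusted p = 0.0436). Of the 15 alternatives only 3 called Cpe: DESeq2, limma-voom and edgeR without sham 3. The log2 fold change varied little with the processing, from 0.30 to 0.37 in all 15 alternatives. Of the Cpe reads, 99.88% to 99.96% were assigned to Cpe-201, its only transcript annotated as coding.

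Pam lies on chromosome 1 from 97795114 to 98095646. The amidating enzyme had 345, 337 and 334 CPM in the tumour libraries and 188, 189 and 292 CPM in the sham libraries, so that the groups did not overlap but sham 3 approached the tumour level. The log2 fold change of 0.60 (SE 0.18, 1.52-fold) did not pass the test in edgeR (adjusted p = 0.0611), whereas DESeq2 called it (adjusted p = 0.0119). Of the 15 alternatives only 2 called Pam, DESeq2 and edgeR without sham 3, and limma-voom did not (adjusted p = 0.0536). The tumour mean was 1.8 times that of sham 1 and 2 and 1.16 times sham 3.

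Pam is made in forms with and without a cassette exon between the 2 catalytic domains, which changes whether the enzyme can be cut into soluble parts. Of its 15 annotated transcripts, Pam-201 and Pam-202 hold this exon of 318 bases (chromosome 1, 97864203 to 97864520, minus strand, coding) and Pam-210 skips it. The junctions that tell them apart are shown from the GENCODE transcripts, 5′ to 3′, with bases of the cassette exon in capitals:
Pam junction with the exon: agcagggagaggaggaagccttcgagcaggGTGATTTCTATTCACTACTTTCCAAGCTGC
Pam junction without the exon: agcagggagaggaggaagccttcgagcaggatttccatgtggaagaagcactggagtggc

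Transcripts with the exon made up 54.6%, 51.2% and 52.8% of the TPM of these 3 transcripts in the tumour libraries and 50.7%, 50% and 51.1% in the sham libraries. The means were 52.9% ± 1.7 and 50.6% ± 0.557 (SD, n = 3), a difference of about the size of the spread within the tumour group. Both forms were more abundant in the tumour libraries: those with the exon had 68.1 ± 3.38 TPM against 42.1 ± 12.7, and Pam-210 had 60.7 ± 1.53 TPM against 40.9 ± 11.6. These transcript values are estimates that divide shared reads, and they were described without a test.

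Within the forms that hold the exon, Pam-202 differs from Pam-201 in the coding part by 3 bases at the start of a later exon (chromosome 1, 97826038 to 97826040), in capitals:
Pam-201 at this site: cggaaatcaaagAAGccgaggcagttg
Pam-202 made up 18.8%, 14.6% and 16.5% of the TPM of both in the tumour libraries and 23.8%, 27.4% and 25.1% in the sham libraries, with no overlap between the groups. The level of Pam-202 itself did overlap, at 13.5, 9.58 and 11 TPM in the tumour and 8.22, 9.54 and 14.2 TPM in the sham libraries. Pam-201 was higher in the tumour libraries, at 58.3, 56 and 55.8 TPM against 26.3, 25.3 and 42.5 TPM. The 2 transcripts also differ in the length of their first and last exons, and which of these differences the estimate rests on was not tested.

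Scg3 also has 2 main coding transcripts, which differ by 15 bases at the end of an exon (chromosome 9, 75663193 to 75663207, minus strand), shown with the exon they extend and in capitals:
Longer Scg3 exon: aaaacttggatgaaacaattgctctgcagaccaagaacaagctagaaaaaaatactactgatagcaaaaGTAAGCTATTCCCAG
The transcript with the longer exon had 37.6% ± 1.42 of the TPM of both in the tumour and 37.6% ± 1.03 in the sham libraries (SD, n = 3). In sham 3, where Scg3 as a whole was lowest, the share was 36.5%, inside the range of the tumour libraries (36% to 38.7%).

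The 7 tested genes differed in their profiles over the 6 libraries. Likeness was measured as the root mean square difference of log2 CPM after subtracting each gene's mean, so that 0 is the same profile. Scg3 and Scg5 were the most alike pair, at 0.165; of the tested genes with a mean of at least 5 CPM, 0.5% lay nearer to Scg3 and 1.1% nearer to Scg5. Scg2 lay at 0.455 from Scg5 and 0.489 from Scg3. Seen from Scg2, 1.1% and 1.6% of genes were nearer than these, but 35.2% lay nearer to Scg5 and 20.9% nearer to Scg3 than Scg2 did. Cpe and Pam lay at 0.293 from each other, but 57.7% of genes lay nearer to Cpe. Vgf was far from Scg2, Scg3, Scg5 and Chgb (1.57 to 2.09).

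The genes outside the family nearest to Scg3 were Ccnl1 (0.0475), Ccdc40 (0.0507) and Serpina3n (0.0578), out of 10913 genes compared over 6 libraries. Nearest to Cpe were Tmed10 (0.016), Calcoco1 (0.0173) and Rubcn (0.0185). Tmed10 had 495 to 501 CPM in the tumour and 378 to 417 CPM in the sham libraries. Near Scg3, Serpina3n had 69.4, 65.5 and 70.2 CPM in the tumour and 90.7, 96.2 and 27.7 CPM in the sham libraries.

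**Figure D3:**
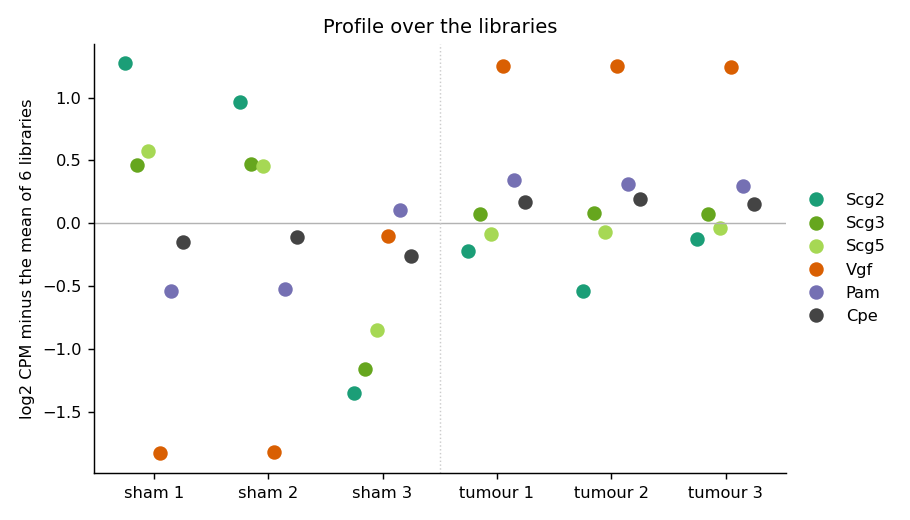
Log2 CPM of 6 genes in each library after subtracting the mean of the 6 libraries; the dotted line divides sham (left) from tumour (right). Scg2, Scg3 and Scg5 lie highest in sham 1 and 2 and lowest in sham 3, whereas Vgf lies lowest in sham 1 and 2 and highest in the 3 tumour libraries.

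In Scg2, Scg3, Scg5, Chgb and Pam, sham 3 differed from the mean of sham 1 and 2 by a larger fold than the tumour from the sham libraries. Sham 3 was at least 2-fold below the mean of sham 1 and 2 in 3 of the 7 tested genes, Scg2 (6.51-fold), Scg3 (3.1-fold) and Scg5 (2.59-fold), and at least 2-fold above it in 1, Vgf (3.32-fold). Over all tested genes 5.82% were at least 2-fold below and 3.94% at least 2-fold above. Sham 3 lay on the side of the tumour libraries for Vgf and Pam, and beyond them for Scg2, Scg3 and Scg5. The sham SD of Scg3 was 50.5% of its mean and that of Vgf 75.5%, against 0.409% and 0.355% in the tumour libraries and 5.2% for Cpe in the sham libraries.

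Without sham 3 edgeR called 3 of the 7 genes higher (Vgf with a log2 fold change of 3.08, Pam with 0.85 and Cpe with 0.30) and 3 lower (Scg2 with -1.48, Scg5 with -0.58 and Scg3 with -0.40), and left only Chgb uncalled. That fit rests on sham 1 and 2, which almost coincided, and it called 29.1% of all tested genes higher and 28.6% lower.

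**Figure D4:**
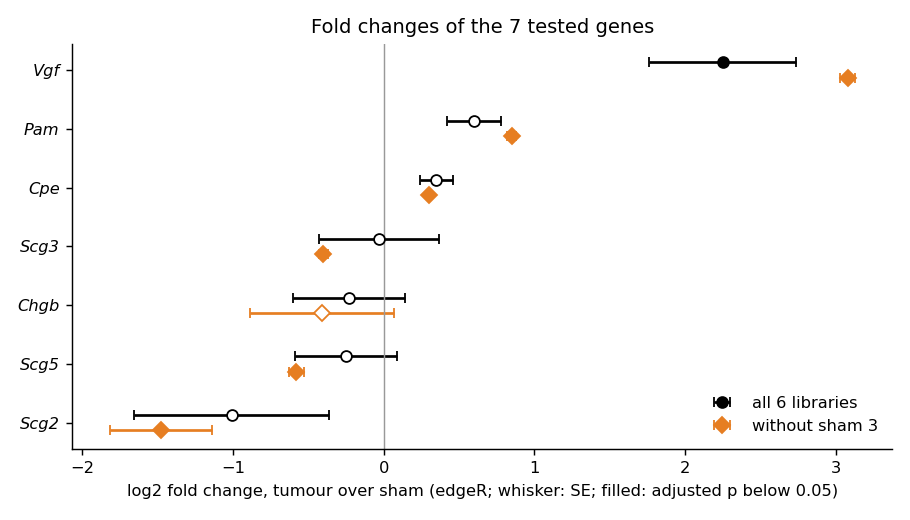
Log2 fold change of tumour over sham for the 7 tested genes, with all 6 libraries (black circles) and without sham 3 (orange diamonds); whiskers are SE and filled points passed an adjusted p of 0.05 in edgeR. With all libraries only Vgf is filled; without sham 3 the points of Scg3, Scg5 and Scg2 move down and 6 of 7 are filled.

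Marker genes of cell types differed between the libraries as well. Summed over 13 astrocyte markers the level was 7599 to 7715 CPM in the tumour libraries, 9769 and 9859 in sham 1 and 2, and 5216 in sham 3, the same order as for Scg3 and Scg5. The sum was carried by abundant genes such as Glul and Atp1b2, and its members differed: edgeR called Aldh1l1 higher (339 to 352 CPM in tumour, 228, 231 and 281 in sham 1 to 3) and Gja1 lower (529.5 to 553 CPM against 1213, 1202 and 707), and the other 11 were not called. Summed over 6 mural cell and fibroblast markers it was 3621 to 3653 CPM in the tumour libraries, 3446 and 3450 in sham 1 and 2 and 5798 in sham 3. Col1a1 and Col1a2 carried this sum, at 1717 and 3825 CPM in sham 3. Of the others, Pdgfrb was higher in sham 3 than in sham 1 and 2 (156.9 against 113.4 and 109.8 CPM). Dcn (52.5 against 131.7 and 123.2 CPM) and Lum (45.9 against 60.8 and 55.7 CPM) were lower, and Rgs5 was below 1 CPM. None of the 6 was called by edgeR. The 14 neuron markers summed to 419 to 425 CPM in the tumour libraries and 163, 160 and 226 in sham 1 to 3. Of this, Eno2, an enolase, made up 283.8 to 286.5 CPM in the tumour and 52.2 to 66 CPM in the sham libraries. Of the 14 neuron markers 5 stayed below 1 CPM in all libraries. Rbfox3 and Slc17a6 were at 0 in all libraries. Stmn2, named after its values were seen, was not called. It had 88 to 95.9 CPM in the tumour libraries and 79.3, 76.7 and 136.3 CPM in sham 1 to 3. Of the 9 tested neuron markers edgeR called Eno2 and Gad1 higher and Tubb3 (-1.04) and Syn1 (-1.89 on the log2 scale) lower. The neurofilament genes Nefm and Nefl, picked after their values were seen and not called, had the order of Vgf, Nefm with 23.3 to 26.5 CPM in the tumour libraries and 2.46, 2.83 and 14.7 CPM in sham 1 to 3. The part of other cells in the values of Vgf, Pam, Scg2, Scg3 and Scg5 was not tested.

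Markers of SCLC and epithelium summed to 80.3 to 83.3 CPM in the tumour and 82.5 to 97.4 CPM in the sham libraries over 17 genes, 8 of which were below 1 CPM in all libraries. Epcam, an epithelial adhesion gene, had 0.237 to 0.331 CPM in the tumour libraries and 0 in the sham libraries, and Grp was at 0 throughout. The neuroendocrine regulator Insm1 was at 1.46 to 2.26 CPM in the tumour and 3.04 to 3.47 CPM in the sham libraries, and Neurod1 was at most 0.164 CPM. Of these markers 1 was called higher in the tumour libraries, the keratin gene Krt19 (20.9 to 21.3 CPM against 1.14, 1.33 and 4.22 CPM).

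Promoters of 8 of the 10 genes were matched by symbol in the RefSeq table (GRCm38.p6, 250 bases before and 50 after the annotated start); those of Cpe and Vgf were not. They were searched on both strands for the cyclic AMP response element (CRE) TGACGTCA, the shorter core TGACG (part of every full element), the E-box CAGCTG, the hypoxia core ACGTG and the SP1 letters GGGCGG. The full CRE was found in 3 of the 8 genes, against 1.8% of all 32851 promoters, and at least the shorter core in 7 of 8, against 20.8%. Among the 14281 promoters with 10 or more CG pairs, these shares were 3.4% and 33.1%; the members' own promoters held 9 to 38. The sites are shown because genes of very different level share them. They are on the strand of the gene, with 10 bases on each side and the motif in capitals, which for Pcsk2 reads on the other strand:
Scg2, chr1:79440077-79440104: gctgagccggTGACGTCAgcgtggaatg
Chgb, chr2:132781560-132781587: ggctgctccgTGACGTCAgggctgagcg
Pcsk1, chr13:75089769-75089796: caggtagatcTGACGTCAagagatggct
Chga, chr12:102554887-102554911: ggcggtcctaTGACGtaatttcctg
Scg3, chr9:75684072-75684096: gctgggtcgcTGACGccatcctcac
Scg5, chr2:113829252-113829276: aggaggtaaaTGACGttcatagggg
Pcsk2, chr2:143546089-143546113: ggcgggcgcgCGTCAcccgggctgg

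The sites of Scg2, Chgb and Pcsk1 begin 68, 72 and 78 bases before the annotated start, and those of Chga, Pcsk2 and Scg3 begin 44, 34 and 30 bases before it. Scg5 held 3 short cores, of which the one shown begins 175 bases before the start and the others lie after it. Pcsk1 held a further short core outside its full element. Pam held neither motif. The hypoxia core was found in 2 of 8 (19.6% of all promoters), the E-box in 4 (16.3%) and the SP1 letters in 6 (35.7%). The genes with a full CRE, Scg2, Chgb and Pcsk1, were all below 3 CPM in these libraries. A match is a description of letters, not of binding.

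Other genes of the pathway were described from 3 lists. Of all tested genes 20.9% were called in either direction, and of the tested genes of the lists 27.8%, 28.6% and 27.3%. Of 19 other processing enzymes and inhibitors 18 were tested; 1 was higher and 4 were lower in tumour, and the median log2 fold change was -0.09. Cpm, a membrane carboxypeptidase, rose from 4.39 ± 0.498 to 9.65 ± 0.623 CPM (SD, n = 3), by 1.14 on the log2 scale (SE 0.14, adjusted p = 0.00409, edgeR). The aminopeptidase gene Rnpep (-0.41), Cpxm1 (-0.70), which encodes a carboxypeptidase-like protein, and the Golgi glutaminyl cyclase gene Qpctl (-0.48) fell; each lost its call when tumour 1, 2 or 3 or sham 2 was left out, and Cpxm1 also without sham 1. Rnpep also lost its call when replicate number was added to the edgeR model (adjusted p = 0.0516). Mbtps1 fell as well (-0.29, edgeR adjusted p = 0.0371) and was named after its value was seen. Its call too was lost without tumour 1, 2 or 3 or sham 2, where 0 genes of this list were called lower. Furin, the convertase of the constitutive pathway, had 128, 134 and 140 CPM in the tumour and 134, 136 and 173 CPM in the sham libraries. Pcsk1n, which encodes the PC1 inhibitor proSAAS, had 39, 36.7 and 36.9 CPM against 34.1, 36.8 and 17.2 CPM. These 2 were named after their values were seen, and neither was called.

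Of 42 genes of vesicle sorting, docking and fusion, 35 were tested, 4 were higher and 6 lower, with a median log2 fold change of 0.07. Hid1, a Golgi protein needed to form dense-core vesicles, fell from 32.8 ± 3.35 to 13.9 ± 0.157 CPM, a log2 fold change of -1.24 with an SE of 0.10 (adjusted p = 0.000909, edgeR). The small GTPase gene Rab27a, which acts in granule docking, fell from 13.5 ± 0.668 to 7.18 ± 0.813 CPM (-0.91). Rab3d, another secretory GTPase, rose from 33 ± 1.33 to 47.7 ± 1.47 CPM (0.53), and Cyb561, the vesicle cytochrome that supplies electrons for amidation, rose from 60.9 ± 7.77 to 98.5 ± 0.409 CPM (0.70). Hid1, Rab27a, Rab3d and Cyb561 kept their calls with each library left out in turn, but not with near-coinciding libraries summed, where edgeR called none of all genes (0, with 573 below an unadjusted p of 0.05); Rab3d also lost its call with length offsets. Ptprn, the vesicle membrane protein IA-2, was named after its values were seen and had 38.6, 36.2 and 36.7 CPM in the tumour and 15.4, 14.6 and 56 CPM in the sham libraries, so that sham 3 was the highest of all 6.

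Of 35 peptide precursors, 24 were too low to test, and 5 of these had 0 reads in all libraries. Of the 11 tested, 2 were higher and 1 lower, with a median log2 fold change of -0.42. Adm, the precursor of the vasodilator adrenomedullin, which needs amidation, rose from 120 ± 29.6 to 375 ± 7.4 CPM, by 1.64 on the log2 scale (SE 0.19, adjusted p = 0.00309, edgeR). Edn1, the precursor of endothelin-1, rose from 0.881 ± 0.416 to 5.54 ± 0.419 CPM (2.65, SE 0.33). Penk, which encodes the opioid precursor proenkephalin, fell from 22.4 ± 2.35 to 8.72 ± 1.09 CPM (-1.36, SE 0.13). In Adm, Edn1 and Penk the groups did not overlap, and the calls held with each library left out in turn, but not with near-coinciding libraries summed.

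**Figure D5:**
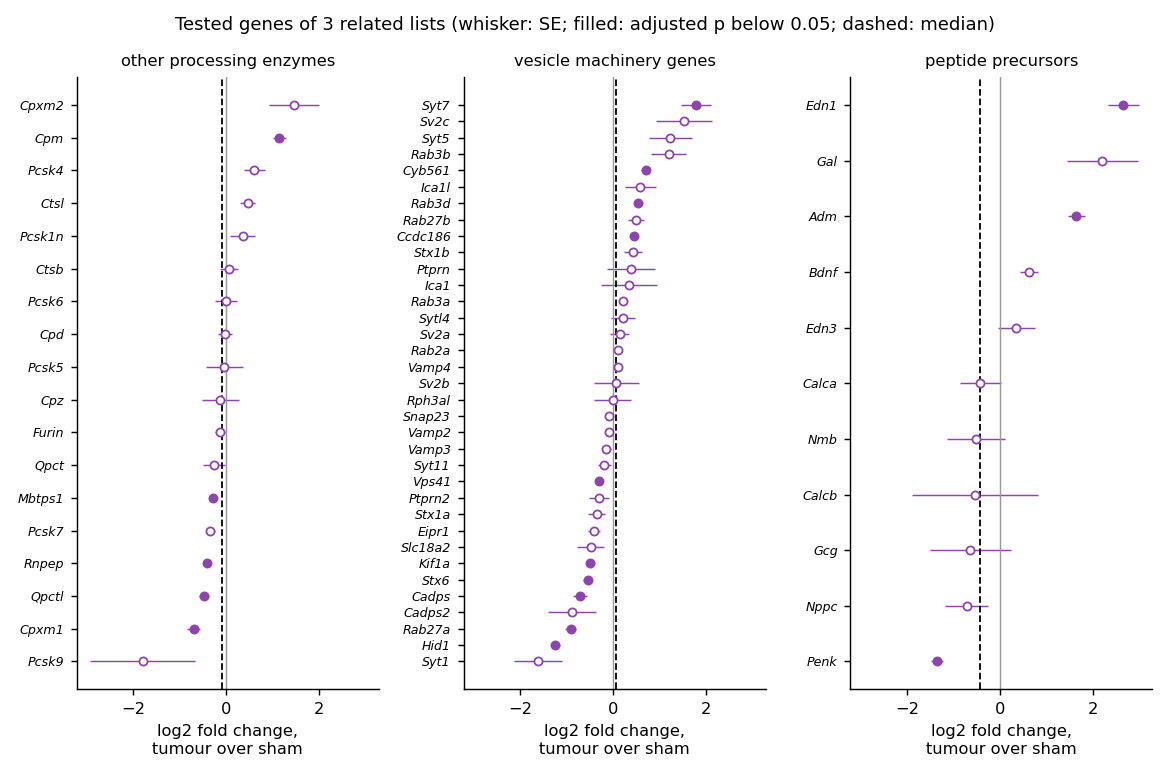
Log2 fold change of tumour over sham, with SE, for the tested genes of 3 lists; filled points passed an adjusted p of 0.05 in edgeR and dashed lines are medians. The medians lie near 0 for other processing enzymes (-0.09) and vesicle machinery genes (0.07) and at -0.42 for peptide precursors, and called genes lie on both sides of 0 in each list.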

How the data were processed

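RNA-seq of 6 libraries in 2 groups (3 tumour, 3 sham, from the sample titles) was used. Estimated counts and TPM per transcript were deposited by the authors; the submitters' processing notes name mm10, Salmon (0.8.2) and, as a further tool, DESeq2 (1.28.1). Deposited lengths are in bases. Of 113116 transcripts 112841 were matched to GENCODE M21 (GRCm38); they carried at least 99.947% of reads. The estimated counts of each gene's transcripts were added up, then rounded. At 22133723 to 25800897 reads a library, 3 reads were worth 0.118 to 0.136 CPM.

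The test was edgeR 4.0.16 (R 4.3.3): genes passing filterByExpr at a count of 10 and a total of 15, TMM scaling, and a robust quasi-likelihood model of group over all 6 libraries, with Benjamini-Hochberg adjustment over all tested genes at 0.05. SE was derived from the log2 fold change and the square root of its F statistic. CPM uses TMM-scaled totals; log2 CPM has a prior count of 2, and 0.5 CPM was added for counting 2-fold differences of sham 3. DESeq2 1.42.0, limma-voom (limma 3.58.1), other scaling and filters, length offsets, a replicate block, left-out libraries and summed near libraries were alternatives. Scripts were tested on simulated data.

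Members and lists were chosen with earlier results of these data known. Genes named were the 10 members, up to 4 called genes of smallest p per related list, and the 3 genes most like each of the 2 members of highest TPM (mean of at least 5 CPM, without predicted, mitochondrial and ribosomal protein genes). Cell type markers and exceptions are named as such. Protein sequences were not analysed here. Reads of overlapping genes cannot be separated where strand is not given. Results for some items are not reported here.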

Additional observations from a re-analysis of the deposited data

How the results depend on the processing

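The direction of Vgf, Pam, Cpe, Chgb, Scg2 and Scg5 held in every alternative run for them. For Chgb and Scg5 the log2 fold change nearly vanished in some, so their direction is weakly held. It was -0.04 for Chgb without tumour 1 (SE 0.41) and -0.01 for Scg5 without sham 1 (SE 0.36). Scg3 turned positive with limma-voom (0.16), with the replicate block (0.13) and with near libraries summed (0.20), and ranged from -0.40 to 0.20 with a library left out; the cause was not tested. Members called higher numbered 3 with DESeq2, 2 with limma-voom, and 0 without a filter or with near libraries summed (main: 1); DESeq2 also called 2 other processing enzymes and 4 peptide precursors higher. With a library left out, members called higher ranged from 0 to 3 and lower from 0 to 3, other processing enzymes from 1 to 6 and from 0 to 6, vesicle machinery genes from 2 to 12 and from 2 to 12, and peptide precursors from 2 to 5 and from 1 to 3. Over all genes these counts ranged from 536 to 4250 higher and from 355 to 4179 lower (main: 1506 and 1492), the highest without sham 3. Length offsets called 969 genes lower. With near libraries summed, leaving 3 samples, edgeR called 0 genes of any list and 0 overall (573 at an unadjusted p below 0.05); other tools were not run there.

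Same-numbered libraries did not deviate together: the correlations of their deviations were 0.008, -0.019 and -0.001. No pairing by number was seen, but with 3 libraries a group these values cannot exclude one. With the replicate block 829 genes were called higher and 607 lower, with 2 other processing enzymes lower; Vgf kept its call (adjusted p = 0.0373, edgeR). Scg2 and Chgb rest on 9 to 67 and 12 to 22 reads a library; without sham 3 the SE of Scg2 fell from 0.65 to 0.34.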
